A study of Mus musculus with 12 samples.

Results

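Ion channels let potassium, calcium, sodium and other ions cross the cell membrane and so set the membrane potential and the calcium signals of a cell. The 58 genes described here encode potassium channels, voltage-gated calcium and sodium channels, transient receptor potential (TRP) channels, the stretch-gated Piezo channels, and potassium and calcium channel accessory subunits. They were picked by symbol. Of 28004 genes in the table, 122 carried a symbol of these families, with the pericyte markers Kcnj8 and Trpc6 left out, and 58 of the 122 reached a value of at least 10 in 3 or more of the 12 libraries. In contractile mesenchyme, potassium channels hold the membrane potential negative, and voltage-gated calcium channels open when it becomes less so and admit calcium that drives contraction and transcription. Piezo channels and several TRP and tandem-pore potassium channels respond to stretch, and the fluid-filled fetal lung starts to breathe air between the stages studied.

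The 12 libraries were made from lung cells of mice with a pair of reporters, Acta2-dsRed, driven by the gene of smooth muscle actin, and Pdgfra-GFP, driven by that of a receptor for platelet-derived growth factor. Whole lung was dissociated, and cells with both reporters were collected by flow cytometry from embryos at E17.5 (embryonic days) and from pups at postnatal days 3, 7 and 10 (P3, P7, P10), with 3 libraries a stage. All 4 groups share the genotype and the sort, and no treatment is given. The labels give no gate beyond the pair of reporters. In such bulk samples fewer cells of a type cannot be told apart from less RNA per cell. Whether each library is a different animal is not labelled. The p-values thus measure the spread between these samples alone, which may be technical.

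Library totals were 13328623 to 18740591 estimated counts. Levels are given as CPM (counts scaled to a common library total) after TMM scaling of library sizes. The deposited values look divided by transcript length, so the CPM of different genes are set side by side on a per-length scale. Acta2 lay between 347 and 1075 CPM and Pdgfra between 165 and 409 CPM, so both sorted genes were present in every library. E17.5 replicate 1 stood apart for several channel genes. Among 44 members with a mean of at least 1 CPM, it was more than 2-fold above both other E17.5 libraries for 7 (Cacna1d, Kcna2, Kcne4, Kcnh2, Kcnk13, Kcnk5 and Scn7a), against at most 2 in any other library. Those called in a comparison are given below with and without it. Kcnh2 (5.84 CPM in that library, 2.04 and 1.67 in the other fetal ones) and Scn7a (12.2 CPM, and 4.09 and 5.27) were not called in any comparison. All 58 members matched 1 gene of GENCODE mouse release 21, from which positions are given on the build GRCm38. The TMM factor of E17.5 replicate 2 was 0.589, and the other 11 factors lay between 0.851 and 1.48. A gene was called changed at an adjusted p under 0.05 in edgeR's quasi-likelihood test, adjusted by Benjamini-Hochberg over all 16827 genes tested, and adjusted p-values below come from it where no other tool is named. Kcnu1 and Kcnip4 did not pass the filter on low values, which left 56 members in the tests. Kcnu1, Kcnip4, Kcnt1 and Scn3a were just inside the threshold with a value of 10 or more in exactly 3 libraries, and Kcnq1 was just outside it with 2. Kcnt1 was kept through its 3 E17.5 libraries alone, so a difference between stages is built into its selection. Kcna5 and Kcnd3 were kept through P3 and P7 libraries alone, and Kcna6, Kcnip1 and Kcnmb3 through postnatal libraries alone. A difference from E17.5 is thus built into the selection of these genes too, and their calls against E17.5 are given as description.

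Over the 4 stages, 29 of the 56 members (51.8%) differed, beside 32.1% of all genes tested. The count was 19 without P7 replicate 1 or 3 and 18 with limma-voom. For 14 of the 29 the highest stage mean was at E17.5, for 3 at P3, for 4 at P7 and for 8 at P10. From E17.5 to P3, 11 members rose (19.6%, beside 13.1% of all genes) and 13 fell (23.2%, beside 12%), together 25.1% of all genes tested, with a median log2 fold change of -0.43 over the 56 members and -0.05 over all genes. From P3 to P10, 7 rose (12.5%, beside 7.90%) and 4 fell (7.14%, beside 9.40%), with 17.3% of all genes called either way. Between P7 and P10, 0 rose (beside 1.40% of all genes) and 2 fell (beside 2.25%), and these were Kcnma1 and Kcnab2. Either way 3.64% of all genes were called there. Between E17.5 and P10, 7 were higher at P10 (12.5%, beside 8.79%) and 13 lower (23.2%, beside 9.50%), with 18.3% of all genes called either way. Kcnt1, for which a difference is built into its selection, is 1 of the 29, of the 14 highest at E17.5 and of the 13 lower in each comparison with E17.5. Kcna5, Kcnd3, Kcna6, Kcnip1 and Kcnmb3, kept without any E17.5 library, are among the 29 and the 11 that rose from E17.5 to P3. Of these, Kcna6, Kcnip1 and Kcnmb3 are also among the 7 higher at P10 than at E17.5. The comparisons share libraries and are not independent of each other. Between P3 and P7, edgeR called 0 of the 56 members, beside 0.00594% of all genes. In that comparison 14 members (25.0%) had an unadjusted p under 0.05, as did 14.3% of all genes, while DESeq2 called 4 higher and 2 lower and limma-voom called 1 higher.

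**Figure D1:**
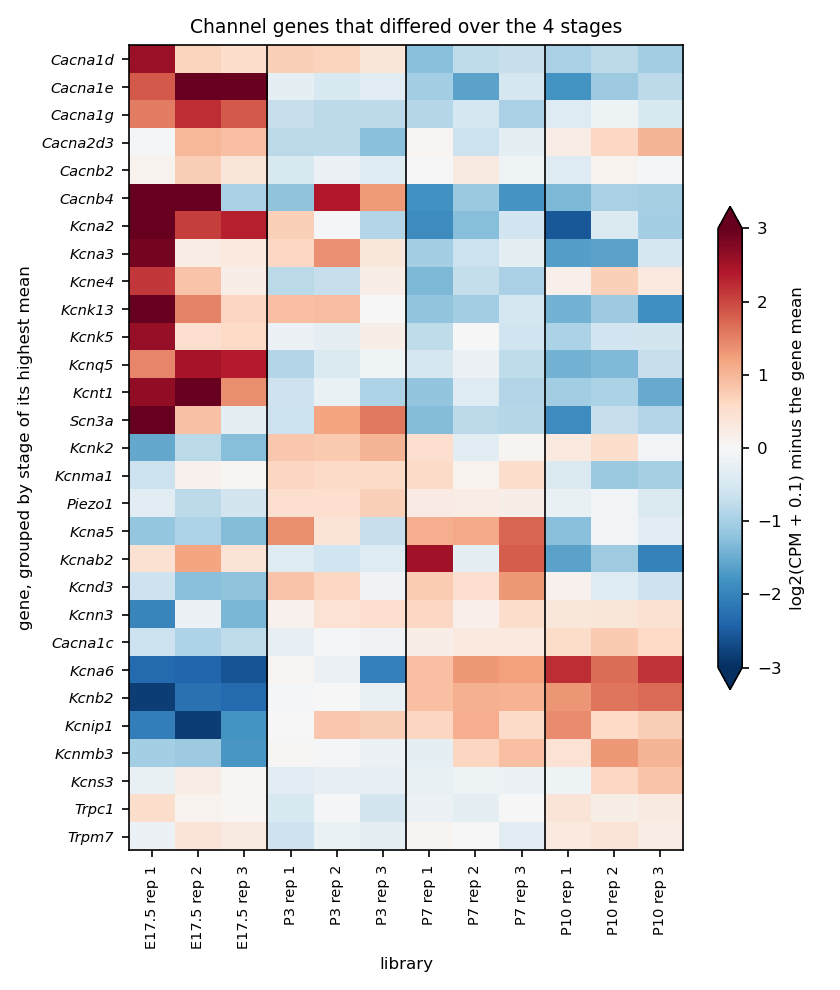
Heat map of the 29 channel genes that differed over the 4 stages, in the 12 libraries (columns, 3 per stage), as log2(CPM + 0.1) minus the mean of the gene over the libraries. Rows are grouped by the stage of the highest mean, with 14 genes highest at E17.5 at the top and 8 genes highest at P10 at the bottom; E17.5 replicate 1 is the darkest column for Cacna1d, Kcne4 and Kcnk5.

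The pore-forming subunits of voltage-gated calcium channels exchanged places in level, with Cacna1g falling and Cacna1c rising. Of 9 matched genes 6 were kept, and 4 of these differed over the stages, beside 32.1% of all genes tested. From E17.5 to P3, 1 of the 6 rose and 2 fell, beside 13.1% and 12% of all genes. Cacna1g (chromosome 11, 94408391 to 94474198, minus strand) encodes the pore of a T-type channel, which opens at low voltage and closes fast. Its libraries held 97.9, 156 and 121 CPM at E17.5, 20.8, 19.5 and 19.5 at P3, 18.6, 23.4 and 17.1 at P7, and 25.9, 30.2 and 24.7 at P10. The 3 fetal libraries lay far above all 9 postnatal ones, with no overlap. From E17.5 to P3 Cacna1g fell 6.26-fold (log2 fold change -2.65, SE 0.18, adjusted p = 1.25e-05), and P10 was still 4.64-fold below E17.5 (log2 fold change -2.21, SE 0.17, adjusted p = 1.80e-05). Cacna1c (chromosome 6, 118587240 to 119196418, minus strand) encodes the main L-type pore of smooth and cardiac muscle. Its levels were 23.0, 18.9 and 21.1 CPM at E17.5, 30.2, 34.9 and 33.3 at P3, 40.8, 43.5 and 43.8 at P7, and 52.1, 61.9 and 54.3 at P10. All 3 libraries of each stage lay above all 3 of the stage before, but the steps from P3 to P7 and from P7 to P10 did not pass (adjusted p = 0.168 and 0.0585). Cacna1c rose from E17.5 to P3 (log2 fold change 0.64, SE 0.10, adjusted p = 0.00132) and again from P3 to P10 (log2 fold change 0.77, SE 0.10, adjusted p = 0.00154). The P10 mean was 2.67-fold the E17.5 mean (log2 fold change 1.42, SE 0.10, adjusted p = 1.06e-05).

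Cacna1e, the pore of an R-type channel, was measured at 7.14, 16.2 and 15.6 CPM at E17.5, 1.57, 1.37 and 1.49 at P3, 0.897, 0.563 and 1.31 at P7, and 0.475, 0.841 and 1.07 at P10. Every postnatal library lay below every fetal one. The gene fell 8.76-fold from E17.5 to P3 (log2 fold change -3.13, SE 0.40, adjusted p = 0.000445) and stood 16.1-fold lower at P10 than at E17.5 (log2 fold change -4.01, SE 0.42, adjusted p = 0.000121). Cacna1d encodes a second L-type pore, which opens at lower voltage than that of Cacna1c. It was found at 37.9, 9.93 and 9.02 CPM at E17.5, 10.3, 10.03 and 8.04 at P3, 2.54, 3.66 and 3.84 at P7, and 3.15, 3.56 and 2.999 at P10. Fetal replicate 1 was far above the other two, which overlapped the P3 libraries, while all P7 and P10 libraries were lower. Cacna1d was lower at P10 than at E17.5 (log2 fold change -2.55, SE 0.50, adjusted p = 0.00542), and without E17.5 replicate 1 the difference was smaller and still called (log2 fold change -1.55, SE 0.20, adjusted p = 0.000800). The call ended when only the 6 libraries compared were fitted (adjusted p = 0.0546). Cacna1a, a pore of neuronal P/Q-type channels, and Cacna1h, another T-type pore, stayed at or below 4.87 CPM in every library and were not called in any comparison.

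**Figure D2:**
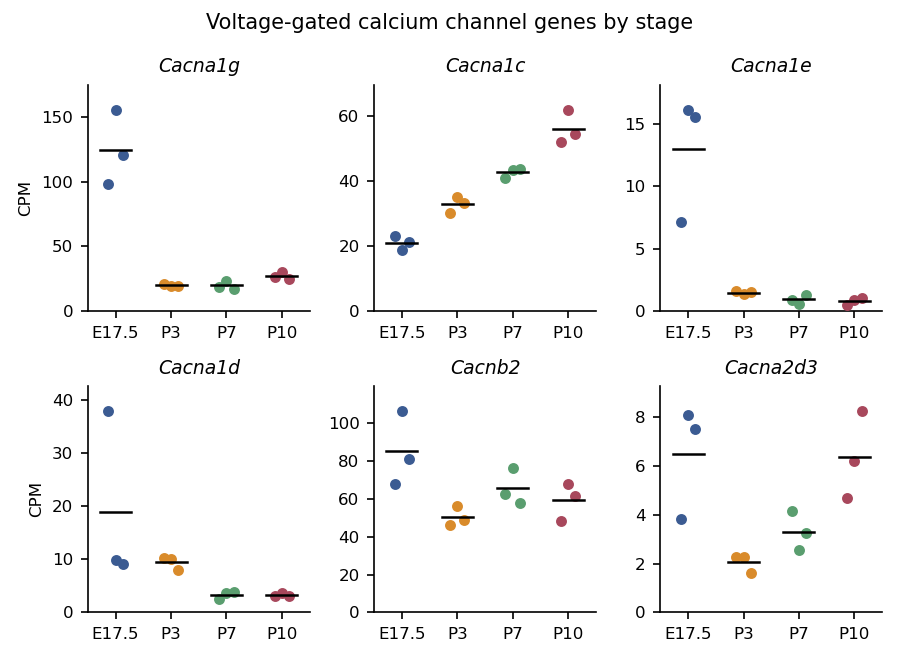
Levels (CPM, vertical axis from 0) of 4 calcium channel pore genes and 2 accessory subunit genes at the 4 stages. Points are the 3 libraries of a stage and bars their means; Cacna1g falls from a mean of 125 CPM at E17.5 to 19.9 at P3, while Cacna1c climbs to 56.1 at P10.

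As shares of the summed CPM of the 6 kept pore genes, Cacna1g made up 67.6% ± 8.87 at E17.5, and 29.9% ± 1.65, 27.7% ± 3.48 and 29.6% ± 1.37 at P3, P7 and P10 (SD, n = 3). Cacna1c made up 11.6% ± 2.27, 49.2% ± 2.97, 60.1% ± 2.28 and 61.8% ± 1.24 in the same order. Cacna1g was therefore the leading pore gene in each fetal library and Cacna1c in each postnatal one. The 6 genes summed to 183 ± 20.4 CPM in the fetal libraries (SD, n = 3), and by age after birth to 66.7 ± 2.08, 71.1 ± 4.63 and 90.7 ± 6.61 CPM, so the gain in share of Cacna1c came with a smaller family total.

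**Figure D3:**
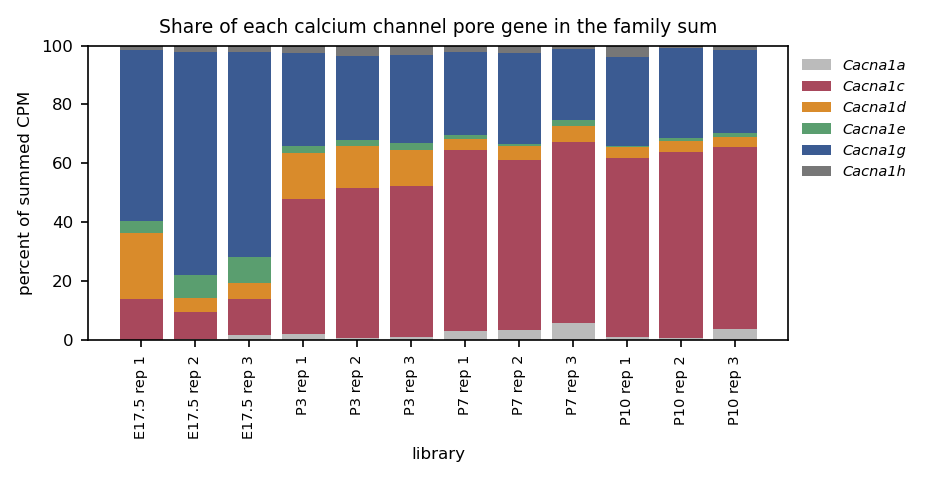
Stacked bars of the share (percent of summed CPM, from 0) of each of 6 calcium channel pore genes in each of the 12 libraries. Cacna1g (blue) fills most of the 3 fetal bars with a mean of 67.6%, and Cacna1c (red) is the largest block of the 9 postnatal bars with stage means of 49.2% to 61.8%.

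Accessory subunits carry the pore to the membrane and tune its gating. Cacnb2 and Cacnb3, beta subunits, were the highest of all calcium channel genes after Cacna1g at E17.5. Cacnb2 was measured at 68.0, 106 and 80.9 CPM at E17.5, 45.9, 56.2 and 49.0 at P3, 62.7, 76.3 and 58.0 at P7, and 48.5, 68.0 and 61.7 at P10. All fetal libraries lay above the P3 ones and overlapped those of P7 and P10. Cacnb2 fell from E17.5 to P3 (log2 fold change -0.75, SE 0.18, adjusted p = 0.0127), and leaving out E17.5 replicate 2 or P3 replicate 1 ended the call (adjusted p = 0.0522 and 0.0525). Cacnb3 had stage means of 42.8 to 57.1 CPM and was not called in any comparison. Cacna2d3, an alpha2delta subunit, went down and came back, at 3.81, 8.08 and 7.51 CPM at E17.5, 2.25, 2.28 and 1.62 at P3, 4.14, 2.54 and 3.26 at P7, and 4.69, 6.21 and 8.24 at P10. Its P3 libraries were the lowest 3 of all, and its P10 libraries overlapped the fetal ones. It fell from E17.5 to P3 (log2 fold change -1.65, SE 0.33, adjusted p = 0.00474) and rose from P3 to P10 (log2 fold change 1.63, SE 0.33, adjusted p = 0.00911). Cacna2d1, the other alpha2delta gene kept, had stage means of 28.4 to 36.8 CPM and fell by 0.37 on the log2 scale from E17.5 to P3 (adjusted p = 0.0193). The call of Cacna2d1 ended without E17.5 replicate 2, E17.5 replicate 3 or P3 replicate 1 (adjusted p 0.0514 to 0.0773). Cacnb4 was uneven within stages, at 6.46, 6.71 and 0.261 CPM at E17.5, 0.205, 3.65 and 1.62 at P3, 0.0997, 0.225 and 0.105 at P7, and 0.178, 0.259 and 0.254 at P10. A pair of fetal libraries was high, the third was at the level of the late stages, and the 3 P3 libraries ran from low to high. Its difference between P10 and E17.5 (log2 fold change -4.23, SE 1.17, adjusted p = 0.0313) was lost without E17.5 replicate 1, E17.5 replicate 2 or any P10 library (adjusted p 0.0720 to 0.102), and limma-voom gave an adjusted p of 0.512. Exons of Cacnb4 share 1433 nt with a gene on the other strand.

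Markers of other cells that the sort could hold moved between the same stages. The 12 listed pericyte markers were all in the table, and none was at 0 in all libraries. Their sums were 328 to 423 CPM at E17.5, 161 to 177 at P3, 231 to 244 at P7, and 291 to 327 at P10. Of these 12, 5 fell from E17.5 to P3, beside 12% of all genes. Red blood cell markers, of which 5 of 8 were tested, summed to between 117 and 180 CPM at E17.5 and between 31.9 and 53.7 at P3. The 8 vascular smooth muscle markers overlapped between these stages, at 512 to 945 CPM at E17.5 and 739 to 907 at P3. Airway epithelial markers summed to at most 25.8 CPM in the E17.5 libraries and to at least 85.2 CPM in those of P3. Immune markers, of which 8 of 12 were tested, summed to 11.6 to 13.3 CPM at E17.5 and 23.7 to 26.1 at P3. Of the 8 tested, 4 rose, beside 13.1% of all genes. Mesothelial markers summed to 8.83 to 12.7 CPM at E17.5 and 2.32 to 4.46 at P3. Alveolar epithelial, cardiac, and mast cell and platelet markers overlapped between the 2 stages, with E17.5 sums of 122 to 165, 3.02 to 12.8 and 3.60 to 4.89 CPM. The part of these cells in the calcium channel levels was not tested.

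Voltage-gated potassium channel genes moved in both directions, with Kcnb2 and Kcna6 rising and Kcnq5 and Kcna2 falling. Of 32 matched genes 13 were kept, and 8 of these differed over the stages, beside 32.1% of all genes tested. Over the stages limma-voom did not call Kcna3, Kcna5, Kcnd3 and Kcns3 of the 8. From E17.5 to P3, 4 of the 13 rose and 2 fell, beside 13.1% and 12% of all genes. Of those that rose, Kcna5, Kcna6 and Kcnd3 were kept through postnatal libraries alone, so the count of rises is given as description. Kcnb2 (chromosome 1, 15287254 to 15723750, plus strand) encodes a delayed rectifier, which repolarizes the membrane after excitation. It was measured at 0.680, 1.07 and 0.991 CPM at E17.5, 5.32, 5.41 and 4.66 at P3, 10.3, 11.5 and 11.3 at P7, and 13.8, 16.8 and 17.8 at P10. Each stage lay above the one before in all its libraries, without overlap. Kcnb2 rose 5.61-fold from E17.5 to P3 (log2 fold change 2.49, SE 0.18, adjusted p = 2.10e-05) and 3.14-fold from P3 to P10 (log2 fold change 1.65, SE 0.16, adjusted p = 0.000521), and the P10 mean was 17.6-fold the E17.5 mean (log2 fold change 4.14, SE 0.19, adjusted p = 1.61e-06). The step from P3 to P7 did not pass (log2 fold change 1.10, SE 0.16, adjusted p = 0.0643), nor did that from P7 to P10 (log2 fold change 0.55, SE 0.16, adjusted p = 0.0770). Kcna6, a Shaker-type delayed rectifier, was found at 0.204, 0.195 and 0.156 CPM at E17.5, 1.5004, 1.25 and 0.270 at P3, 2.79, 3.72 and 3.52 at P7, and 7.01, 4.79 and 6.86 at P10. Its 3 fetal libraries were the lowest, and P3 replicate 3 lay close to them. Kcna6 rose from E17.5 to P3 (log2 fold change 2.42, SE 0.55, adjusted p = 0.00904), which limma-voom did not call (adjusted p = 0.202), and from P3 to P10 (log2 fold change 2.61, SE 0.46, adjusted p = 0.00513). Between E17.5 and P10 the log2 fold change of Kcna6 was 5.03 (SE 0.55, adjusted p = 0.000147), and its exons share 2355 nt with Gm26673 on the other strand. Because of how Kcna6 was kept, its differences from E17.5 are built in, and its p-values against E17.5 lend no support.

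Kcnq5 and Kcna2 went the other way. Kcnq5 (chromosome 1, 21398403 to 21961942, minus strand), of the slowly activating M-current family, was measured at 2.85, 5.84 and 5.32 CPM at E17.5, 0.477, 0.684 and 0.878 at P3, 0.648, 0.845 and 0.526 at P7, and 0.297, 0.324 and 0.559 at P10. All fetal libraries were well above all postnatal ones. It fell 6.80-fold from E17.5 to P3 (log2 fold change -2.77, SE 0.39, adjusted p = 0.000749) and was 11.6-fold lower at P10 than at E17.5 (log2 fold change -3.53, SE 0.41, adjusted p = 0.000209). Kcna2, another Shaker-type channel, was at 10.9, 3.80 and 4.59 CPM at E17.5, 1.43, 0.798 and 0.405 at P3, 0.150, 0.282 and 0.526 at P7, and 0.0594, 0.582 and 0.356 at P10. Fetal replicate 1 was the highest, and the other two still exceeded every postnatal library. Kcna2 was lower at P10 than at E17.5 (log2 fold change -4.25, SE 0.76, adjusted p = 0.00325), also without E17.5 replicate 1 (log2 fold change -3.64, adjusted p = 0.0113) and without P10 replicate 2 (-4.87, adjusted p = 0.00817). Its fall from E17.5 to P3 (log2 fold change -2.86, SE 0.70, adjusted p = 0.0129) did not hold without E17.5 replicate 1 (-2.25, adjusted p = 0.0544) or without P3 replicate 2 (adjusted p = 0.0548). Kcna3 was lower at P10 than at E17.5 (log2 fold change -3.49, adjusted p = 0.0235), but its level at E17.5 was 3.60 CPM in replicate 1 against 0.487 and 0.522 in the others. Without that library Kcna3 changed by -1.91 and was not called (adjusted p = 0.139), and the call also ended without P10 replicate 1 or 2 (adjusted p 0.0745 and 0.0872) and with limma-voom (adjusted p = 0.203). Without P10 replicate 3 the change of Kcna3 was -4.47.

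Kcna5 and Kcnd3, both at or below 1.16 CPM in every library, were highest at P7. From E17.5 to P3 Kcna5 rose by 2.64 on the log2 scale (adjusted p = 0.0410) and Kcnd3 by 2.01 (adjusted p = 0.0300). Both were kept through P3 and P7 libraries alone, so a difference from E17.5 is built in and these p-values lend no support. The Kcna5 call held only without P3 replicate 3 or P10 replicate 1 and ended without any other library (adjusted p 0.0553 to 0.175), and without P3 replicate 1 the log2 fold change of Kcna5 was 1.85. The Kcnd3 call ended without E17.5 replicate 2 or 3, P3 replicate 1 or 2, or P7 replicate 1 or 3 (adjusted p 0.0531 to 0.103). Kcns3, an electrically silent modifier subunit, was the most abundant voltage-gated potassium channel gene, at stage means of 16.6 to 28.4 CPM. It rose from P3 to P10 (log2 fold change 0.78, SE 0.21, adjusted p = 0.0317) through P10 replicates 2 and 3, at 30.9 and 36.5 CPM, while P10 replicate 1 was at 17.9. This call ended without any P3 library or without P10 replicate 2 or 3 (adjusted p 0.0826 to 0.126). P10 replicate 1 was also low for endothelial markers, whose 8 measured genes summed to 12.6 CPM there and to 74.6 and 76.4 in the other P10 libraries. Airway epithelial markers summed to 71.4 CPM in it against 207 and 254, alveolar epithelial markers to 55.04 CPM against 194 and 145, and Acta2 stood at 676 CPM against 364 and 420. The part of these in the Kcns3 level was not tested. Of 12 neuronal and glial markers 10 were in the table, and 9 had a median under 1 CPM. Their sums were 4.08 to 5.16 CPM at E17.5 and 14.8 to 22.6 at P10. Only S100b of them passed the filter on low values, and it was called higher at P10 than at E17.5. The part of these markers in the rise of Kcnb2 and Kcna6 was not tested.

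**Figure D4:**
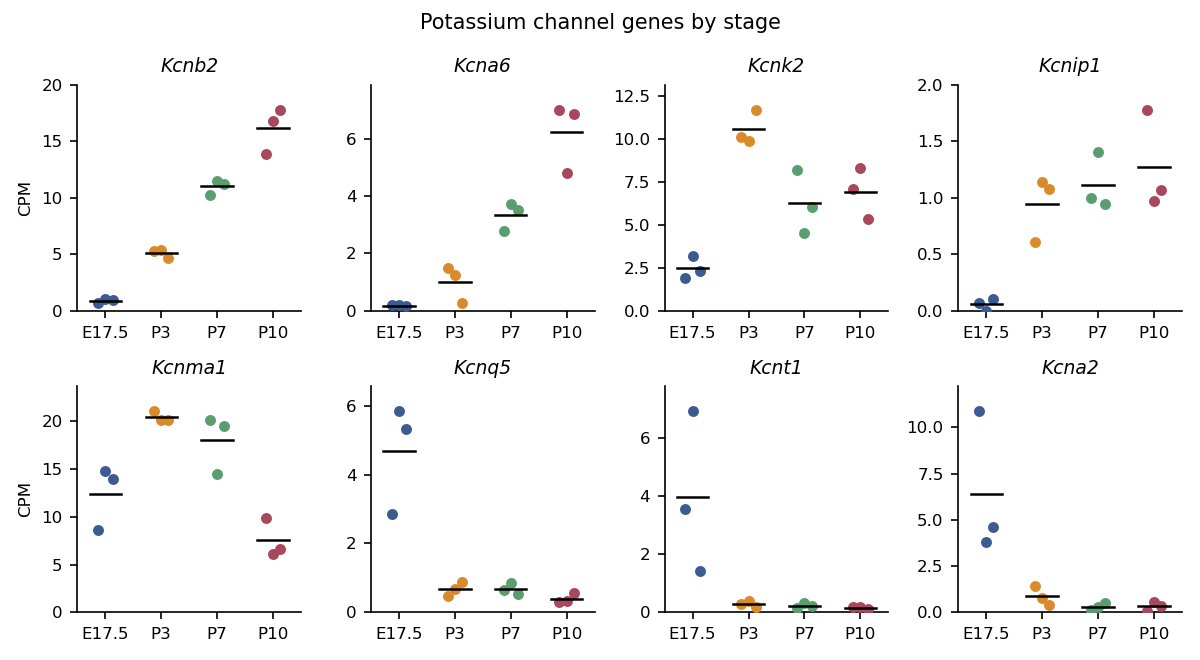
Levels (CPM, vertical axes from 0 and scaled to each gene) of 8 potassium channel genes at the 4 stages. Points are the 3 libraries of a stage and bars their means; Kcnb2 climbs from a mean of 0.914 CPM at E17.5 to 16.1 at P10, while Kcnq5, Kcnt1 and Kcna2 are high only in the fetal libraries.

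Tandem-pore potassium channels carry a background current that holds the resting potential, and 6 of 11 matched genes were kept. From E17.5 to P3, 1 of these 6 rose and 1 fell, beside 13.1% and 12% of all genes. Kcnk3, an acid-sensitive channel, was the most abundant of them, at stage means of 24.8 to 38.7 CPM, and was not called in any comparison. Kcnk2 (chromosome 1, 189207930 to 189402273, minus strand), a channel opened by stretch and by fatty acids, was measured at 1.90, 3.21 and 2.29 CPM at E17.5, 10.1, 9.86 and 11.7 at P3, 8.17, 4.51 and 6.05 at P7, and 7.07, 8.28 and 5.34 at P10. The P3 libraries were the highest, the fetal ones the lowest, and P7 and P10 overlapped between them. Kcnk2 rose 4.30-fold from E17.5 to P3 (log2 fold change 2.10, SE 0.27, adjusted p = 0.000429) and was still higher at P10 than at E17.5 (log2 fold change 1.49, SE 0.27, adjusted p = 0.00333). Kcnk13, inhibited by volatile anaesthetics, was at 7.61, 2.43 and 1.30 CPM at E17.5, 1.57, 1.60 and 0.811 at P3, 0.299, 0.338 and 0.526 at P7, and 0.237, 0.324 and 0.153 at P10. E17.5 replicate 1 was the highest library, and overlap was seen between E17.5 and P3 and between P7 and P10 but not between P3 and P7. Kcnk13 was lower at P10 than at E17.5 (log2 fold change -3.97, SE 0.68, adjusted p = 0.00247), without E17.5 replicate 1 as well (-2.94, adjusted p = 0.00469), though limma-voom gave an adjusted p of 0.101. Its fall from P3 to P10 (log2 fold change -2.46, SE 0.66, adjusted p = 0.0288) ended without P3 replicate 1 or 2 or any P10 library (adjusted p 0.0618 to 0.109).

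Kcnk5, an alkali-activated tandem-pore channel, had 6.66 CPM in E17.5 replicate 1 and 1.46 and 1.56 in the other fetal libraries, and stage means of 0.944, 0.731 and 0.594 at P3, P7 and P10. It was lower at P10 than at E17.5 (log2 fold change -2.43, SE 0.58, adjusted p = 0.0150), and by 1.34 on the log2 scale without E17.5 replicate 1 (log2 fold change -1.34, adjusted p = 0.0477). That call ended without P10 replicate 1 or 3 (adjusted p = 0.0515 and 0.0509), with limma-voom (adjusted p = 0.0831) and in the fit of the 6 libraries compared (adjusted p = 0.0723). Its fall from E17.5 to P3 (log2 fold change -1.77, adjusted p = 0.0414) was -0.68 without E17.5 replicate 1 (adjusted p = 0.259), and ended without any library other than E17.5 replicates 2 and 3. The only inward rectifier kept of 11 matched was Kcnj13, with stage means of 0.650 to 0.989 CPM and no call.

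Calcium-activated potassium channels open as calcium rises inside the cell and so oppose further depolarization. Kcnma1 (chromosome 14, 23289431 to 24014491, minus strand) encodes the large-conductance channel of smooth muscle. Its libraries held 8.63, 14.8 and 13.9 CPM at E17.5, 21.1, 20.2 and 20.2 at P3, 20.1, 14.5 and 19.5 at P7, and 9.91, 6.15 and 6.66 at P10. The P3 libraries were the highest 3, closely followed by P7 replicates 1 and 3, and all P10 libraries were below all P3 and P7 ones. From P3 to P10 Kcnma1 fell 2.70-fold (log2 fold change -1.43, SE 0.23, adjusted p = 0.00400). Its fall from P7 to P10 (log2 fold change -1.25, SE 0.23, adjusted p = 0.0231) ended without any P7 library or without P10 replicate 2 or 3 (adjusted p 0.0509 to 0.104). Its rise from E17.5 to P3 (log2 fold change 0.72, adjusted p = 0.0422) ended without any of 9 libraries, all but P7 replicate 2 and P10 replicates 1 and 2 (adjusted p 0.0510 to 0.117). Acta2 itself had stage means of 492, 1025, 822 and 487 CPM, and its part in the Kcnma1 level was not tested. The exons of Kcnma1 share 1016 nt with a gene on the other strand.

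The beta subunits of the large-conductance channel raise its calcium sensitivity or speed its closing. Kcnmb1, the smooth muscle form, had a mean of 1.49 CPM at P3 and of 0.448 CPM at P10, a fall (log2 fold change -1.72, SE 0.44, adjusted p = 0.0242), and this call ended without any P3 or P10 library (adjusted p 0.0529 to 0.0900). Kcnmb3 went the other way, at 0.408, 0.389 and 0.209 CPM at E17.5, 0.955, 0.911 and 0.811 at P3, 0.748, 1.52 and 1.84 at P7, and 1.31, 2.46 and 1.98 at P10. All postnatal libraries exceeded all fetal ones. Kcnmb3 was higher at P10 than at E17.5 (log2 fold change 2.52, SE 0.44, adjusted p = 0.00288). The rise of Kcnmb3 from E17.5 to P3 (log2 fold change 1.42, adjusted p = 0.0381) ended without any E17.5 or P3 library, P7 replicate 2 or P10 replicate 3 (adjusted p 0.0536 to 0.110). As Kcnmb3 was kept through postnatal libraries alone, a difference from E17.5 is built in, and its p-values against E17.5 lend no support. Kcnmb4 had stage means of 3.201 to 6.05 CPM with no call.

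The small-conductance channel gene Kcnn3 rose from E17.5 to P3 (log2 fold change 1.44, SE 0.40, adjusted p = 0.0238), from 0.544, 2.14 and 0.887 CPM to 2.66, 3.30 and 3.51 CPM. Without E17.5 replicate 2, the highest fetal library, the change of Kcnn3 was 2.13, and the call ended without E17.5 replicate 1 or 3 or P3 replicate 2 or 3 (adjusted p 0.0535 to 0.0740). Kcnn3 was also higher at P10 than at E17.5 (log2 fold change 1.47, adjusted p = 0.0275), or 2.14 without E17.5 replicate 2, a call that ended without E17.5 replicate 1 or 3 or any P10 library (adjusted p 0.0539 to 0.0882). Kcnn2, of the same family, was more abundant at stage means of 7.38 to 11.7 CPM and was not called. Kcnt1, a sodium-activated channel, was found at 3.53, 6.91 and 1.41 CPM at E17.5, 0.273, 0.399 and 0.203 at P3, 0.150, 0.338 and 0.210 at P7, and 0.178, 0.194 and 0.102 at P10. The 3 fetal libraries were spread widely and all lay above the postnatal ones. As a description, with no test since the fetal values chose the gene, its mean was 3.95 CPM at E17.5 and at most 0.291 CPM at any later stage.

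Among the other accessory subunits, Kcnip1, a calcium-binding partner of the A-type channels to which Kcnd3 belongs, was measured at 0.0680, 0 and 0.104 CPM at E17.5, 0.614, 1.14 and 1.08 at P3, 0.997, 1.41 and 0.947 at P7, and 1.78, 0.971 and 1.07 at P10. It was at or close to 0 in the fetal libraries and between 0.614 and 1.78 CPM from P3 on. The fitted log2 fold change of Kcnip1 was 3.72 from E17.5 to P3 (SE 0.61, adjusted p = 0.00170) and 4.14 between E17.5 and P10 (SE 0.61, adjusted p = 0.00103), and with such low fetal values its size moved to 4.38 and 4.78 without E17.5 replicate 3. Since Kcnip1 was kept through postnatal libraries alone, a difference from E17.5 is built in and these p-values lend no support. Kcne4, a single-span subunit that inhibits several potassium channels, had the highest mean of the potassium channel accessory genes at E17.5, P3 and P10, at 48.9, 20.4 and 12.8 CPM at E17.5, 6.34, 6.84 and 12.9 at P3, 4.34, 6.82 and 5.63 at P7, and 12.5, 18.4 and 13.8 at P10. E17.5 replicate 1 was the highest library by far, the other fetal libraries overlapped P3 and P10, and P7 was low. Kcne4 fell from E17.5 to P3 (log2 fold change -1.66, SE 0.46, adjusted p = 0.0258). Without E17.5 replicate 1 the log2 fold change of Kcne4 was -0.93 and was not called (adjusted p = 0.0842), and the call also ended without P3 replicate 1 or 2 (adjusted p = 0.0942 and 0.0985).

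Kcnab2, a cytoplasmic beta subunit of Shaker-type channels, was uneven at P7, at 1.29, 2.24 and 1.25 CPM at E17.5, 0.682, 0.570 and 0.676 at P3, 5.73, 0.733 and 3.47 at P7, and 0.237, 0.388 and 0.153 at P10. P7 replicates 1 and 3 were the 2 highest libraries, P7 replicate 2 was close to the P3 level, and the P10 libraries were the lowest 3. Kcnab2 fell from P7 to P10 (log2 fold change -3.66, SE 0.68, adjusted p = 0.0233). Its log2 fold change was -2.98 without P7 replicate 1, and the call ended without P7 replicate 1 or 3 or P10 replicate 2 or 3 (adjusted p 0.0771 to 0.104). It was also lower at P10 than at E17.5 (log2 fold change -2.59, adjusted p = 0.0225), which ended without E17.5 replicate 2 or P10 replicate 1 or 3 (adjusted p 0.0651 to 0.0909). Kcnip3 was lower at P10 than at E17.5 (log2 fold change -1.08, adjusted p = 0.0426), a call that ended without any library other than E17.5 replicate 1 (adjusted p 0.0534 to 0.170).

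Piezo1 and Piezo2 form large channels that open when the membrane is stretched. Piezo1 (chromosome 8, 122481698 to 122551329, minus strand) was found at 8.70, 6.33 and 7.46 CPM at E17.5, 15.5, 15.4 and 17.97 at P3, 12.96, 12.8 and 12.4 at P7, and 9.32, 10.2 and 8.03 at P10. The P3 libraries were the highest 3, P7 came next without overlap, and the P10 libraries lay below these and overlapped the fetal ones. Piezo1 rose 2.17-fold from E17.5 to P3 (log2 fold change 1.12, SE 0.14, adjusted p = 0.000396) and fell 1.77-fold from P3 to P10 (log2 fold change -0.82, SE 0.14, adjusted p = 0.00466). Both calls held without each of the 12 libraries. P10 and E17.5 differed by 0.29 on the log2 scale (SE 0.14, adjusted p = 0.187). Exons of Piezo1 share 2441 nt with Ctu2 on the other strand, and whether the authors counted by strand is not given in the sources used here. Piezo2, the form known for touch and airway stretch sensing in sensory neurons, was the more abundant of the pair at every stage mean, at 25.5, 54.0 and 42.0 CPM at E17.5, 23.5, 19.9 and 26.4 at P3, 26.6, 28.5 and 21.9 at P7, and 30.2, 24.6 and 23.0 at P10. A pair of fetal libraries was above all others, and E17.5 replicate 1 was at the postnatal level. Piezo2 fell from E17.5 to P3 (log2 fold change -0.80, SE 0.24, adjusted p = 0.0321). The Piezo2 call ended without E17.5 replicate 2 or 3, P3 replicate 1 or 2, or P7 replicate 1 (adjusted p 0.0504 to 0.148).

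Of 19 matched TRP channel genes 5 were kept, and Trpm7 was the most abundant of these. Trpm7, a channel for magnesium, calcium and zinc fused to a kinase, was measured at 28.5, 42.3 and 38.9 CPM at E17.5, 20.9, 28.3 and 26.8 at P3, 34.3, 32.0 and 25.5 at P7, and 39.8, 42.1 and 38.1 at P10. P3 had the lowest mean and overlapped P7, E17.5 replicate 1 lay among the P7 libraries, and the P10 libraries were above all P3 and P7 ones. Trpm7 rose from P3 to P10 (log2 fold change 0.66, SE 0.17, adjusted p = 0.0238), and the call ended without P3 replicate 1 or 3 or any P10 library (adjusted p 0.0550 to 0.0853). Its fall from E17.5 to P3 (log2 fold change -0.53, adjusted p = 0.0422) ended without any library other than E17.5 replicate 1 and P7 replicate 3 (adjusted p 0.0545 to 0.170). Trpc1, a subunit of receptor-operated channels, had its stage means in the same order, at 13.4, 10.02 and 9.65 CPM at E17.5, 6.75, 9.001 and 6.28 at P3, 8.17, 7.61 and 9.41 at P7, and 12.2, 10.6 and 11.2 at P10. P3 overlapped P7 at the low end, and the E17.5 and P10 libraries overlapped at the high end. From E17.5 to P3 Trpc1 fell (log2 fold change -0.58, SE 0.18, adjusted p = 0.0342), and from P3 to P10 it rose (log2 fold change 0.63, SE 0.18, adjusted p = 0.0342). The first of these calls ended without E17.5 replicate 1 or 2 or P3 replicate 1 or 3 (adjusted p 0.0566 to 0.122), and the second without P3 replicate 1 or 3, P7 replicate 1 or any P10 library (adjusted p 0.0503 to 0.112). Trpm4, Trpm5 and Trpv2 had stage means of 1.93 to 4.21 CPM and no call. Trpv4, a channel opened by osmotic swelling and stretch that did not reach the threshold, was at most 0.292 CPM in any library and at 0 in 3.

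**Figure D5:**
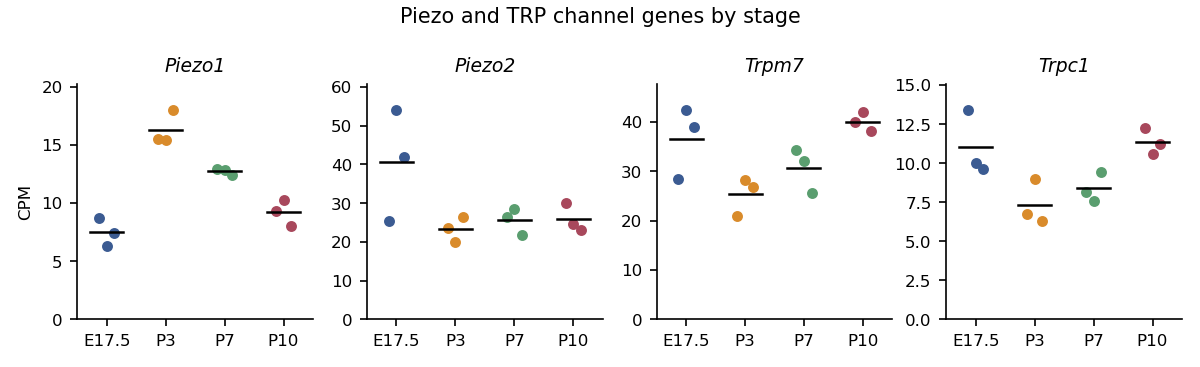
Levels (CPM, vertical axes from 0 and scaled to each gene) of Piezo1, Piezo2, Trpm7 and Trpc1 at the 4 stages. Points are the 3 libraries of a stage and bars their means; Piezo1 peaks at P3 with a mean of 16.3 CPM, where Trpm7 and Trpc1 have their lowest means, 25.3 and 7.34 CPM.

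Voltage-gated sodium channels start action potentials in nerve and muscle, and 3 of 7 matched pore genes were kept. Scn7a, an atypical sodium channel gated by sodium concentration, had stage means of 4.92 to 10.3 CPM and no call, with P10 replicate 1 at 3.27 CPM and the other P10 libraries at 14.1 and 13.6. Scn3a was found at 4.89, 0.584 and 0.209 CPM at E17.5, 0.136, 0.741 and 1.01 at P3, 0.0498, 0.113 and 0.105 at P7, and 0, 0.129 and 0.102 at P10. It was high in E17.5 replicate 1 alone. Its difference between P10 and E17.5 (log2 fold change -4.50, adjusted p = 0.0349) was -2.22 without that library (adjusted p = 0.249) and ended without any of 8 libraries, which were E17.5 replicate 1, P3 replicate 2 and all P7 and P10 libraries (adjusted p 0.0514 to 0.249). Scn8a had stage means of 0.627 to 0.744 CPM and no call.

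The stretches just upstream of the gene start are shown for members that moved in opposite directions, so that their letters can be set beside their levels. RefSeq's promoter table held an entry for 41 of the 58 members, and 8 that differed over the stages and between E17.5 and P10 had a window that starts within 30 nt of the GENCODE start and shares at most 30 nt with exons of protein-coding genes. Of these 8 the 2 largest falls and the 2 largest rises are shown, and Cacna1c and Piezo1 were added for the results above, all chosen after the values were seen. Each is the 250 bases before the start on the gene's own strand, 5′ to 3′, from RefSeq on GRCm38.p6. Capitals mark matches, on either strand, to the hexamer GGAATG, the core that TEAD factors of the Hippo pathway bind, to the GC box hexamer GGGCGG, and to the TATA box hexamer TATAAA. Kcnq5 and Kcnk13 fell between E17.5 and P10.
Kcnq5 (chr1:21961943-21962192, minus strand): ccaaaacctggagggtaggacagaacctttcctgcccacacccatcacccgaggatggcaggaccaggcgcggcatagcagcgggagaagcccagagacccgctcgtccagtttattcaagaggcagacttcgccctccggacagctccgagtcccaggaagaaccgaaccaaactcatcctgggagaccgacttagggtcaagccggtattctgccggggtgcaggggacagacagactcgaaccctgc
Kcnk13 (chr12:99964249-99964498, plus strand): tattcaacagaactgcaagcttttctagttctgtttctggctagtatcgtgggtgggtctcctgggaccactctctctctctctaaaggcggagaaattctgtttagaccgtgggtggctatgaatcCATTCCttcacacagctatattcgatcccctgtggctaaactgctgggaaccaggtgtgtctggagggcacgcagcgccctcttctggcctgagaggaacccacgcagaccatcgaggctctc
Kcna6, Kcnk2 and Cacna1c were higher at P10 than at E17.5, and Piezo1 rose from E17.5 to P3.
Kcna6 (chr6:126740675-126740924, minus strand): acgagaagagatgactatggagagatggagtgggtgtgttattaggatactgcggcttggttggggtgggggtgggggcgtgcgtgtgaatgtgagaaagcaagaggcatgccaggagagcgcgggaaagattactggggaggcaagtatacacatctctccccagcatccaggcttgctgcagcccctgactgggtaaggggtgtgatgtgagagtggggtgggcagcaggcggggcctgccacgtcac
Cacna1c (chr6:119196410-119196659, minus strand): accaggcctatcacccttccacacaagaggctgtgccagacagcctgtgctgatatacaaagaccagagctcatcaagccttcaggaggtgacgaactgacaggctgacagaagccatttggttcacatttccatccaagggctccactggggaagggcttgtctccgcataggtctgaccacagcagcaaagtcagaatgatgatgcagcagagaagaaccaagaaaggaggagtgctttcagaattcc
Kcnk2 (chr1:189402274-189402523, minus strand): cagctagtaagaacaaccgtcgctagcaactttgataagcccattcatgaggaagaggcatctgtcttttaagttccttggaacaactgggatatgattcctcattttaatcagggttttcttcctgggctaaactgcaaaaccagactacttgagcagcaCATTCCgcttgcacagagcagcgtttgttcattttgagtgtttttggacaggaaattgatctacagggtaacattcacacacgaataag
Piezo1 (chr8:122551330-122551579, minus strand): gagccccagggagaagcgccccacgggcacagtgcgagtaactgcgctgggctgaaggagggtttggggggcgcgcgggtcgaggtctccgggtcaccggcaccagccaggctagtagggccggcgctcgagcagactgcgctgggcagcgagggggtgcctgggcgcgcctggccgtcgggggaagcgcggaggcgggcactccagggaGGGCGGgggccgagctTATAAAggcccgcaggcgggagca
Kcnk13 and Kcnk2 hold 1 match each to GGAATG, a match found in 12.6% of all 32851 windows of this length, and these genes moved in opposite directions between E17.5 and P10. The Piezo1 window holds 1 GGGCGG and 1 TATAAA close to its start, found in 32.7% and 12.4% of windows. The windows of Kcnq5, Kcna6 and Cacna1c hold none of the 3. A match describes the letters and not a bound site.

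Genes that work with these channels were followed from 4 further lists. Of 23 tested genes for calcium pumps, exchangers, stores and store-operated entry, 6 rose and 1 fell from E17.5 to P3, beside 13.1% and 12% of all genes in that comparison. The 1 that fell was Stim1, the calcium sensor of the endoplasmic reticulum (17.54 ± 1.79 CPM at E17.5 and 9.89 ± 1.16 at P3, SD, n = 3, log2 fold change -0.82, SE 0.12, adjusted p = 0.000994), while its relative Stim2 rose (log2 fold change 0.60, SE 0.17, adjusted p = 0.0239). The Stim2 call ended without E17.5 replicate 2 or 3 or P3 replicate 3 (adjusted p 0.0666 to 0.0814). Mcu and Micu2, of the mitochondrial calcium uniporter, rose by 0.68 and 0.54 on the log2 scale (adjusted p = 0.00360 and 0.00644). Ryr3, a calcium release channel of the internal store, was lower at P10 than at E17.5 (log2 fold change -4.41, SE 0.97, adjusted p = 0.0101), which limma-voom did not call (adjusted p = 0.101). The log2 fold change of Ryr3 was -3.45 without E17.5 replicate 1 and -5.23 without P10 replicate 3, and both were called. Atp2b4, a plasma membrane calcium pump, was higher at P10 than at E17.5 (log2 fold change 0.73, adjusted p = 0.00858).

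Calcium sensors and the calcineurin-NFAT pathway had 5 genes that rose and 4 that fell of 20 tested from E17.5 to P3 (beside 13.1% and 12% of all genes). Ppp3ca, a catalytic subunit of the calcium-dependent phosphatase calcineurin, fell from 61.9 ± 7.71 CPM at E17.5 to 27.9 ± 2.04 at P3 (log2 fold change -1.15, SE 0.12, adjusted p = 0.000165), and Nfatc4, a transcription factor that calcineurin activates, fell from 46.6 ± 8.97 CPM at E17.5 to 23.6 ± 4.61 at P3 (log2 fold change -0.98, SE 0.17, adjusted p = 0.00249). Calm2, a calmodulin gene, rose from 623 ± 56.8 CPM by 0.76 on the log2 scale (adjusted p = 0.000899). Camk2b, a calmodulin-dependent kinase, was at 1.10 CPM at E17.5 and 9.07 at P10 (log2 fold change 3.07, SE 0.34, adjusted p = 0.000147).

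Of 27 tested genes for other channels and their helpers, 4 rose and 8 fell from E17.5 to P3 (beside 13.1% and 12% of all genes). Tmem63a, a stretch-gated channel outside the Piezo family, rose from 11.8 ± 1.87 CPM at E17.5 to 23.1 ± 2.78 at P3 (log2 fold change 0.96, SE 0.16, adjusted p = 0.00194), and Mdfic, which encodes a Piezo accessory protein, rose by 0.45 (adjusted p = 0.00471). Pkd1, the polycystin partner of the Pkd2 channel, fell from E17.5 to P3 (log2 fold change -0.43, adjusted p = 0.00311) and rose from P3 to P10 (log2 fold change 0.65, adjusted p = 0.00121). Gap junction and pannexin genes had 3 that rose and 0 that fell of 5 tested from E17.5 to P3 (beside 13.1% and 12% of all genes). Gja1, which encodes a connexin that couples neighbouring cells, had stage means of 7.77 ± 1.96, 47.8 ± 8.96, 61.8 ± 18.6 and 84.3 ± 32.1 CPM in order of age and rose from E17.5 to P3 (log2 fold change 2.63, SE 0.33, adjusted p = 0.000399). The named differences of Stim1, Mcu, Micu2, Atp2b4, Ppp3ca, Nfatc4, Calm2, Camk2b, Tmem63a, Mdfic, Pkd1 and Gja1 held without each of the 12 libraries.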

How the data were processed

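RNA of sorted lung cells was sequenced in 12 libraries, 3 per stage, from a stranded low-input kit per the labels' protocols. The authors deposited 1 table of estimated counts, named scaled gene counts and rounded to whole numbers. Per the submitters' processing notes the build was GRCm38, while aligner, counter, annotation and use of strand are not stated there or in the labels. The lowest value above 0 was 74.5 (median over genes) for transcripts of up to 90 nt and 1 from 1001 nt on, as a scaling by length gives, so a value is no number of reads and sets no floor for a gene at 0. Depth was 13328623 to 18740591 per library and limits low genes most.

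Stages came from the labels. The edgeR quasi-likelihood test (R 4.3.3 with edgeR 4.0.16; limma was 3.58.1) was fitted in 1 model over 12 libraries after TMM scaling and the edgeR filter by stage, with robust fitting, and was tested on simulated data. Alternatives were DESeq2 size factors, no filter, DESeq2 1.42.0, limma-voom, a replicate block, the 6 libraries compared, each library left out, and a member threshold of 20 or 5.

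The members and lists were chosen with earlier results of these data known. Any kept member could be named. Values per library are given for Piezo1, Piezo2, Kcnma1, Cacna1c and, in each functional group, up to 4 members with the smallest p over the stages among those called, while Trpv4 is given by its highest value. Of the other lists up to 4 genes with the smallest p could be named. Atp2b4, Stim2, Nfatc4 and S100b were named after their values were seen.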

Additional observations from a re-analysis of the deposited data

How the results depend on the processing

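No recomputed fold change of the members turned in direction: of 1019 recomputations of the 57 called differences 206 missed the threshold, and 25 of the 57 held under every setting run. Of the 29 genes called over the stages, 13 held under every setting. Calls lost of 57 numbered 0 with DESeq2 size factors, 0 with DESeq2, 9 with no filter, 19 with limma-voom and 16 of 50 when only the 6 libraries compared were fitted; the cause was not tested. limma-voom ended at least 1 call of Cacnb4, Kcna3, Kcna5, Kcna6, Kcnab2, Kcnd3, Kcnip3, Kcnk13, Kcnk5, Kcnmb3, Kcns3, Kcnt1, Piezo2, Scn3a and Trpm7 among the members named, and the fit of the 6 libraries at least 1 of Cacna1d, Cacna2d1, Kcnab2, Kcne4, Kcnip3, Kcnk5, Kcnma1, Kcnmb3, Kcnn3, Kcns3, Piezo2, Trpc1 and Trpm7. In the same way 28 of the 68 called differences in the 4 other lists held under every setting and 0 turned. With a threshold of 20 or 5 in place of 10, 45 or 68 members are kept. From E17.5 to P3, 7 members rose with no filter, 7 with limma-voom and 4 in the fit of 6 libraries, in which 7 fell. DESeq2 called 4 higher and 2 lower between P3 and P7, 5 higher and 4 lower between P7 and P10, and 7 lower between P3 and P10. With limma-voom 18 members differed over the stages, 1 was higher between P3 and P7, 2 were higher and 1 lower between P7 and P10, and 5 were lower at P10 than at E17.5. The fit of 6 libraries gave 1 higher and 1 lower between P7 and P10 and 7 lower at P10 than at E17.5. With 1 library left out, 19 (without P7 replicate 1 or 3) to 27 members differed over the stages, 6 to 11 rose and 6 to 12 fell from E17.5 to P3, 0 to 1 rose and 0 to 1 fell from P3 to P7, 0 to 2 rose and 0 to 3 fell from P7 to P10, 4 to 9 rose and 2 to 7 fell from P3 to P10, and 6 to 7 were higher and 8 to 14 lower at P10 than at E17.5. Counts moved by over 1.5 times without P3 replicate 1 (6 fell from E17.5 to P3), P3 replicate 2 (6 rose), P3 replicate 3 (4 rose from P3 to P10), E17.5 replicate 1 (7 fell from P3 to P10), E17.5 replicate 2 (7 rose from E17.5 to P3), E17.5 replicate 3 (6 rose), P7 replicate 1 or 3 (0 fell from P7 to P10), P7 replicate 2 (1 fell), P10 replicate 1 (1 rose), P10 replicate 2 (0 fell) and P10 replicate 3 (8 lower at P10 than at E17.5), so each of the 12 libraries moved at least 1 count. Replicate numbers shared by the stages did not pair the libraries: the deviations of same-numbered libraries correlated between -0.19 and 0.14, over 0.1 in 3 of 18 pairs. With the replicate block 21 members differed over the stages, 17 changed from E17.5 to P3, 1 was lower at P10 than at P7, and 13 of the 57 calls were lost.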
